A study of Mus musculus with 22 samples.

Results

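These are the CREB1 binding sites that were called after vehicle and not after dDAVP in cultured mouse mpkCCD cells (clone 11), which derive from the cortical collecting duct of the kidney. They are the peaks of the CREB1 vehicle list that share no base with any peak of the CREB1 dDAVP list. They number 388 of the 785 vehicle peaks (49.4%), and of 3801 peaks in the 4 deposited lists. Because the members were selected on the peak calls themselves, their absence after dDAVP is the rule and not a result. Cells had been grown to confluence on permeable supports and kept in medium without serum or hormones, then given vehicle or 0.1 nM dDAVP for 30 min before chromatin immunoprecipitation and sequencing (ChIP-seq). Each treatment has 4 immunoprecipitated samples for CREB1 (anti-CREB1) and 2 for C/EBP beta (anti-C/EBPb), with 10 input samples in all. How many of these samples each list rests on is not given in the sources used here. Of the inputs, 2 served both CREB1 experiment 3 and C/EBP beta experiment 2. All samples are of 1 clonal line, and the labels do not say whether experiments were separate cultures.

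CREB1 is a leucine zipper transcription factor that binds the cAMP response element (CRE), a palindrome, or one arm of it, mostly close to gene starts. In the collecting duct, vasopressin acts through the V2 receptor to raise cAMP and activate protein kinase A, which phosphorylates CREB1, and phosphorylated CREB1 recruits the coactivators CBP and p300. dDAVP is an analog of vasopressin that is selective for the V2 receptor. C/EBP beta is another leucine zipper factor, with a different recognition sequence.

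The files give positions only for CREB1, as 1 list per treatment. They hold no replicate values and no read counts, so the depth is unknown and the treatment was not tested. A site missing from the dDAVP list may still have held CREB1 below the level that was called. The dDAVP list held 406 peaks against 785 in the vehicle list, and 397 vehicle peaks overlapped it. Where each dDAVP peak pairs with 1 vehicle peak, a list of that length leaves close to 388 vehicle peaks without a partner. By the number of members alone, sites lost and a shorter list of calls cannot be told apart. The part of list length in the choice of members was not tested. In what follows the members are set beside the other 397 vehicle peaks, called shared, which overlap a dDAVP peak by at least 1 bp. Tests treat peaks or promoters as units and describe these lists, not the spread between cultures.

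The CRE in the following members lay inside the peak and upstream of the gene start. They are shown as examples that place the element within the called site, and were chosen after their values were seen, from 55 genes with such a CRE. Lines run 5′ to 3′ along the gene, are taken from RefSeq windows of GRCm38.p6 (the assembly also called mm10), stop before the start, and have the 8-base CRE in capitals.
Ndufb2: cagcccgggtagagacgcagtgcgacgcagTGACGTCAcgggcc
Zfp874b: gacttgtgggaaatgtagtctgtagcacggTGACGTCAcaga
Wsb1: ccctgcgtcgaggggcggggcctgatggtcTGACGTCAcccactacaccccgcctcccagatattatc
Ccnl1: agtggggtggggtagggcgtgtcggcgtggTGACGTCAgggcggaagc
Klc1: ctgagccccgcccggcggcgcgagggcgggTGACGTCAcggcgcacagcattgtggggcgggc
Uqcrfs1: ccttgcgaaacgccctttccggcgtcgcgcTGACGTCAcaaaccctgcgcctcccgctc
Rps9: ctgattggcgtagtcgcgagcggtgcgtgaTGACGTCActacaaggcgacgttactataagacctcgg
Rpl13: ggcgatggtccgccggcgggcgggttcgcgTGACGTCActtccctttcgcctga

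Ndufb2 encodes a subunit of respiratory complex I, and its line is chr6:39592521-39592564 on the plus strand. Uqcrfs1 encodes the Rieske protein of complex III, and its line is chr13:30545317-30545375 on the minus strand. Rps9 (chr7:3703954-3704021, plus) and Rpl13 (chr8:123102296-123102349, plus) encode cytosolic ribosomal proteins. Ccnl1 (chr3:65958250-65958297, minus) encodes cyclin L1, Klc1 (chr12:111758805-111758867, plus) a kinesin light chain, Wsb1 (chr11:79254696-79254763, minus) a substrate receptor of a ubiquitin ligase and Zfp874b (chr13:67484254-67484295, minus) a zinc finger protein. In Ccnl1 and Uqcrfs1 the CRE was centred less than 1 bp from the peak centre. In Ndufb2, Zfp874b and Rpl13 the distance was 20.5, 18.5 and 23.5 bp. The Ndufb2 peak was 421 bp wide and the Zfp874b peak 186 bp, and an element chosen to lie inside a peak cannot be far from the centre of a narrow one.

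Hspa5, Junb and Prkaca, from the cAMP and stress pathways, had no full element in the RefSeq window, but 1 arm of it upstream of the start and inside the peak. They are shown as examples because they had the arm, which was in 75.2% of member windows and 23.6% of all protein-coding windows. The lines below show that arm in capitals, TGACG or its reverse complement CGTCA. Hspa5 encodes the ER chaperone BiP, Junb an AP-1 subunit, and Prkaca a catalytic subunit of protein kinase A.
Hspa5: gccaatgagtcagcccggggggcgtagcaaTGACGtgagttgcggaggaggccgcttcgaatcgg
Junb: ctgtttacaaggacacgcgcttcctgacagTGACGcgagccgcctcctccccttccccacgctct
Prkaca: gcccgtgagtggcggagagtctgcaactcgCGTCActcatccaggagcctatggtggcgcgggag

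The Hspa5 line is chr2:34771903-34771967 (plus), with the arm centred 31.0 bp from the peak centre. The Junb line is chr8:84978820-84978884 (minus), with the arm 24.0 bp from the centre. The Prkaca line is chr8:83972828-83972892 (plus), with the arm 5.0 bp from it. The tables had no window at the Per1 and Ier2 peaks, so these were not searched, and the Creb1 window had no match. Atf4 had an arm in a promoter window and is not shown.

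Members were narrow peaks. Their widths ran from 104 bp at Ddx42 to 511 bp at Ubxn6, with a median of 244 bp (quartiles 212 and 274), against a median of 343 bp (quartiles 303 and 396) for shared peaks. Of the narrowest vehicle peaks (104 to 240 bp), 182 of 201 peaks were members (90.5%). The share was 68.4% from 241 to 290 bp, 28.4% from 291 to 352 bp and 9.28% among the widest 194 peaks. Width comes from the same calls as the rule, so these values are a description. The members covered 97.3 kb in all.

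**Figure D1:**
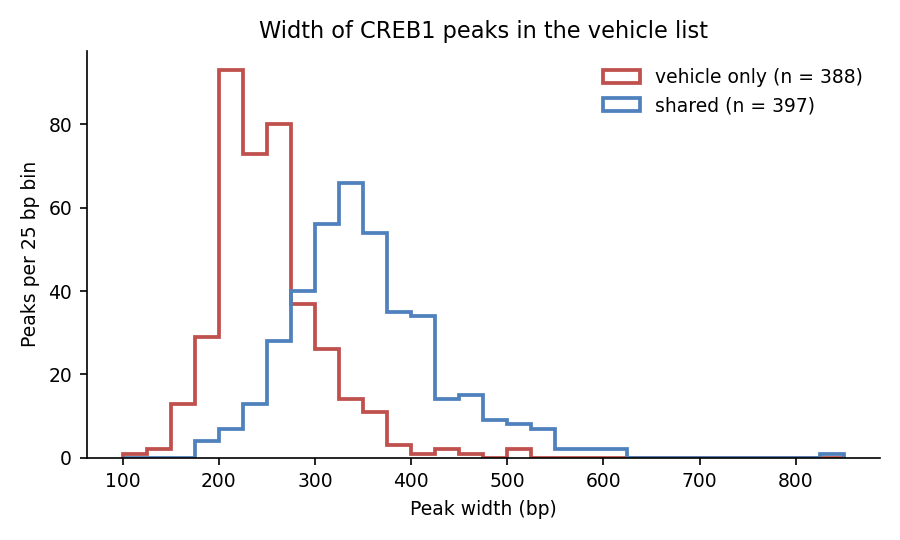
Number of CREB1 vehicle peaks per 25 bp of peak width, for the 388 peaks in the vehicle list only and the 397 shared with the dDAVP list. The members centre near 244 bp and the shared peaks near 343 bp, and the outlines overlap between 182 and 511 bp.

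Per1, a light- and cAMP-inducible clock gene, had a peak of 442 bp, and Ric8b, a chaperone of stimulatory G protein alpha subunits, one of 448 bp. Atf4, the activator of the amino acid and ER stress response, had a peak of 395 bp. Ubxn6, a cofactor of the ATPase p97, Ndufb2, and Txn2, the mitochondrial thioredoxin, had peaks of 511, 421 and 399 bp. Gosr2, a Golgi SNARE (382 bp), Mynn (371 bp), the chromatin remodeller gene Smarcad1 (370 bp) and the repressor gene Hbp1 (369 bp) followed at gene starts. The remaining members of this width lay just over 1000 bp from a start, 1114 bp upstream of Fmc1 and beside a tRNA gene (509 bp wide), and 1178 bp inside Csf2ra (457 bp wide).

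At the threshold of the rule, 4 members came within 1000 bp of a dDAVP peak. The gaps were 127 bp at Mmab, an enzyme of cobalamin metabolism, 136 bp at Elp5, 213 bp for a peak 74601 bp downstream of the start of Rab10 and outside the gene, and 384 bp at Zfp869. The next gap was 2359 bp, at Gtpbp1. On the other side, the smallest overlaps that counted as shared were 32 bp at Ifrd1, 70 bp at Stk11, 75 bp at Tyw1, 118 bp at Ogdh and 128 bp at Gdap2. At Mmab, then, CREB1 was called in both treatments at positions that do not touch, and whether they are the same site was not tested. Elp5, Rab10 and Zfp869 were each also the nearest gene of a shared vehicle peak, so these members may be separate neighbouring sites.

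Members lay at the starts of protein-coding genes. A start within 1000 bp of the peak centre was found for 360 of 388 members (92.8%, 95% Wilson interval 89.8 to 95.0) and for 374 of 395 shared peaks on assembled chromosomes (94.7%, 92.0 to 96.5). The difference of -1.90 points (-5.42 to 1.55) did not pass Fisher's exact test, two-sided (adjusted p = 0.404 over 4 comparisons). The start itself was inside the peak for 271 members and 342 shared peaks, which differ in width. The median distance from centre to start was 62.0 bp for members and 37.0 bp for shared peaks. For 4395 of 21887 genes the reference gave no strand, and there either end of the gene was taken as the start.

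Where the strand was known, member centres sat slightly upstream. Among 310 such members the median offset was -39.5 bp (quartiles -99.5 and 1), and 228 were upstream (73.5%). Among 323 shared peaks the median was -17 bp (quartiles -57.5 and 5), and 221 were upstream (68.4%). Within 250 bp of the start lay 90.3% of these members and 95.7% of these shared peaks. No test was made of the offset.

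**Figure D2:**
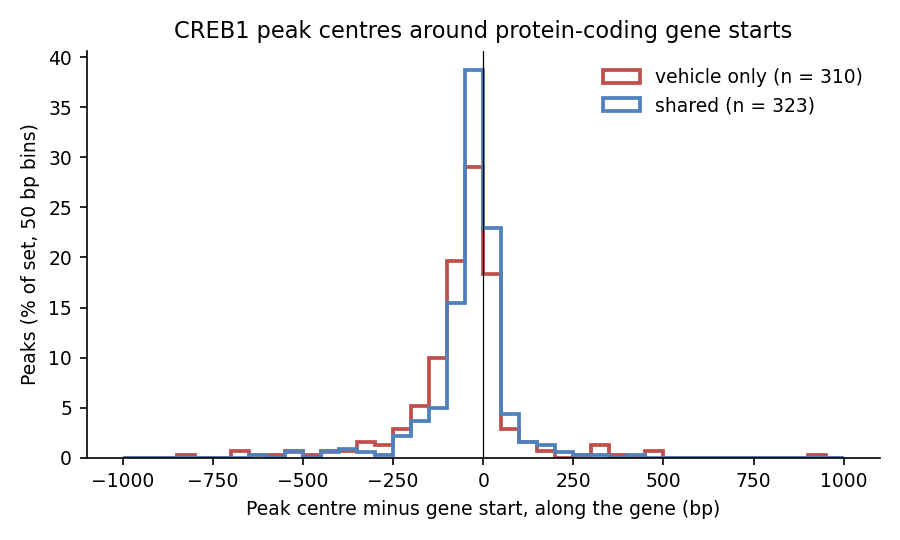
Distance of CREB1 peak centres from the nearest protein-coding gene start in bp, negative upstream, as a percentage of each set in bins of 50 bp, for peaks within 1000 bp of a start with known strand. Both outlines peak at or just upstream of the start, with medians of -39.5 bp for 310 vehicle-only peaks and -17 bp for 323 shared peaks.

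Some members lay at gene pairs that point away from each other. A divergent pair with both starts within 1000 bp was found for 52 of 388 members (13.4%, 10.4 to 17.2) and for 62 of 395 shared peaks (15.7%, 12.4 to 19.6). The difference of -2.29 points (-7.25 to 2.67) did not pass (Fisher's exact test, adjusted p = 0.418). The widest such members were at Ubxn6 and Hdgfl2, at Ccdc151 and Prkcsh (355 bp), at Lrrc57 and Haus2 (350 bp), and at Ndor1 and Tmem203 (334 bp). Others were at Serac1 and Gtf2h5 (319 bp), at Tgfbrap1 and AI597479 (309 bp), at Mkks and Slx4ip (305 bp), and at Aasdhppt and Kbtbd3 (297 bp). One peak can therefore count for several genes in what follows.

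The CRE was frequent in member promoters. RefSeq promoter windows reach from 250 bases before to 50 after a start, and 424 windows of 363 genes belonged to members, 449 windows of 387 genes to shared peaks, and 4 windows near both were left out. The full CRE, TGACGTCA on either strand, was in 76 of 424 member windows (17.9%, 14.6 to 21.9), in 110 of 449 shared windows (24.5%, 20.7 to 28.7) and in 2.23% of all 21263 protein-coding windows. The difference of -6.57 points (-11.9 to -1.14), lower in members, missed the threshold after adjustment over 8 motifs (Fisher's exact test, p = 0.0205, adjusted p = 0.0819). Among peaks up to the median width of 290 bp it passed at -15.5 points (Fisher's exact test, adjusted p = 0.0249, with a range of 0.0249 to 0.370 across settings). That narrow set compares 343 member windows with 85 shared ones. Of the 68 members with a CRE in a promoter window, those centred closest to a start were at Wsb1 and Spata7 (2 bp), Fam71e1 (4 bp), Umps, Spdya and Ccdc130 (5 bp), Napa (6 bp), Clcn3 (8 bp) and Klhl12 (9 bp), followed by Zfp874b, Ndufb2 and Nsmce3 (10 bp each).

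One arm of the CRE, TGACG on either strand, which the full CRE also contains, was in 319 of 424 member windows (75.2%, 70.9 to 79.1). It was in 373 of 449 shared windows (83.1%, 79.3 to 86.3) and in 23.6% of all windows. The difference of -7.84 points (-13.2 to -2.45) passed Fisher's exact test (adjusted p = 0.0363). With 1 window per peak it was -6.50 points, from 246 of 309 and 279 of 324 windows, and did not pass (Fisher's exact test, adjusted p = 0.155, with a range of 0.0342 to 0.351 across settings). Windows of 1 gene overlap, so those counts are not independent. At least 2 arms were found in 40.3% of member windows, 51.4% of shared windows and 6.25% of all windows.

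The matches were close to the centre of the called sites. A window covered the centre of 263 members and 287 shared peaks. Of these members, 63 had a full CRE (24.0%), at a median of 18.5 bp from the peak centre, and 58 of them had it within 50 bp. Of the shared peaks, 86 had one (30.0%), at a median of 15.5 bp, and 79 within 50 bp. An arm was anywhere in such a window for 232 of these members (88.2%) and 266 of these shared peaks (92.7%). It lay within 50 bp of the centre in 73.8% of these members and 82.9% of these shared peaks. These shares were not tested. The windows tested above had a start within 1000 bp of a peak centre, and not all of them covered it. In all protein-coding windows, an arm lay within 50 bp of the position 40 bp upstream of the start in 13.4%, and a full CRE in 1.63%.

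**Figure D3:**
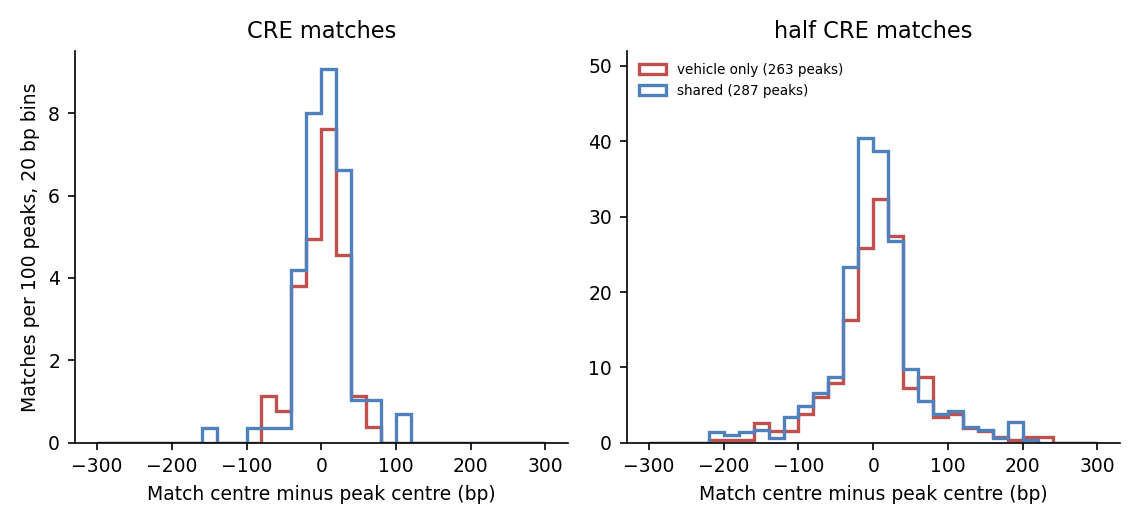
Distance in bp from the peak centre to each match of the full CRE (left) and of 1 arm of it (right), in bins of 20 bp, as matches per 100 peaks whose centre lies in a promoter window (263 vehicle-only, 287 shared). Matches in both sets gather around 0, and most lie within 50 bp of the centre.

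The place of the CRE and its flanking bases were also read. The 69 separate CREs in member windows were centred at a median of 29.5 bp upstream (-29.5), and 66.7% of them lay in the first 100 bp upstream of the start. The 94 in shared windows had a median of -30 bp and 79.8% in that stretch, and the 430 in all windows a median of -43.5 bp and 72.8%. The members' share in that stretch was thus below that of CREs in all windows. A G just before or a C just after the element was present for 58 of the 69 (84.1%), for 76 of the 94 (80.9%) and for 310 of the 430 in all windows (72.1%). No test was made of these shares.

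None of the other 6 promoter motifs, searched on both strands, passed between the sets (Fisher's exact test, adjusted p from 0.276 to 1.00). The CCAAT box, CCAAT, bound by NF-Y, was in 49.8% of member windows, 44.1% of shared windows and 38.2% of all windows (difference 5.67 points, -0.952 to 12.2). It lay within 50 bp of the peak centre in 33.1% of the 263 members and 21.3% of the 287 shared peaks, a share that was not tested. In all protein-coding windows, a CCAAT box lay within 50 bp of the position 40 bp upstream of the start in 20.6%. The GC box, GGGCGG, was in 67.2%, 65.5% and 46.2%. The ETS motif, CCGGAAG, was in 27.1%, 29.6% and 11.6%. The NRF1 motif, GCGCATGC, was in 3.77%, 5.57% and 3.52%. The TATA box, TATAAA, was in 7.08% of member windows and 4.90% of shared windows, below the 12.6% of all windows. The composite of a C/EBP and an ATF arm, TGATGCAA, was in 1 member window and 1 shared window, and in 0.865% of all windows. Member windows had a median GC content of 61.7% and a median ratio of observed to expected CpG of 0.875, against 61.3% and 0.921 for shared windows and 56.3% and 0.567 for all windows. A motif that holds CG is more frequent where CpG is, and its share against all windows was not adjusted for that.

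**Figure D4:**
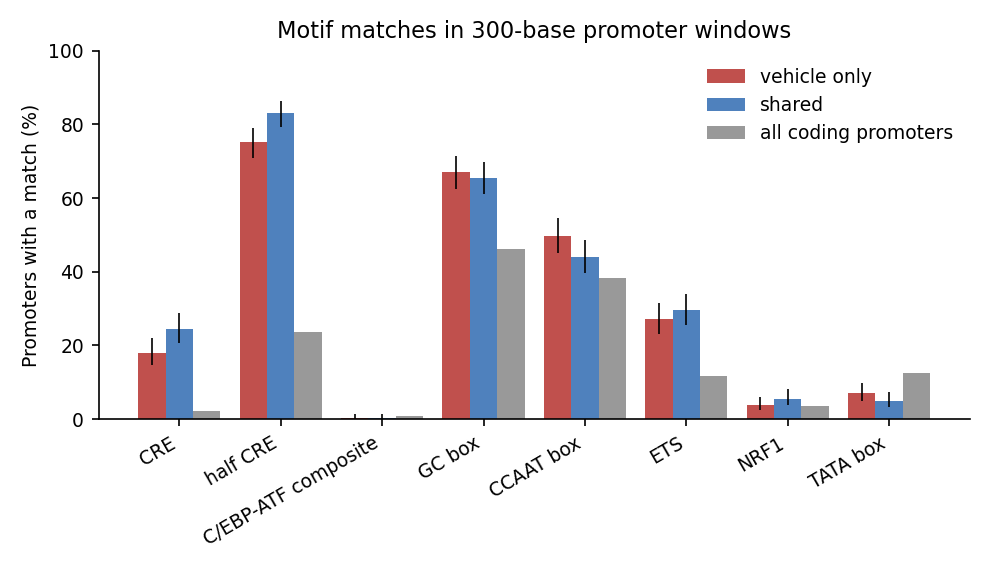
Percentage of 300-base promoter windows with a match to each of 8 motifs, for windows at vehicle-only peaks (424), at shared peaks (449) and for all protein-coding windows (21263). Error bars are 95% Wilson intervals that cover counting error only, and the arm of the CRE has the widest gap in percentage points between member windows (75.2%) and all windows (23.6%).

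Member genes included Creb1 itself and Prkaca, a catalytic subunit of protein kinase A. At a start within 1000 bp of a member lay 428 of 21887 protein-coding genes (1.96%), and of a shared peak 469 (2.14%). The gene lists below were compared with these percentages by counts alone. Of 32 genes for CREB factors, coactivators and protein kinase A, 3 had a member at the start (9.38%) and none had a shared peak. Creb1 had one of 269 bp on chromosome 1 from 64532759 to 64533027, centred 89 bp downstream of its start. Prkaca had one of 222 bp on chromosome 8 from 83972755 to 83972976, centred 113 bp upstream. Creb3l2, an ER-bound relative of CREB, had one of 273 bp centred 55 bp upstream.

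Of 37 CREB target and immediate early genes, 4 had a member (10.8%) and 3 a shared peak (8.11%). The members were at Ier2, an immediate early gene (265 bp wide, 35 bp from a gene end), Junb (220 bp, 80 bp upstream), Per1 (102 bp upstream) and Hspa5 (338 bp, 186 bp upstream). The shared peaks were at Fos, Pcna and Ccna2. Fos, the partner of Junb in AP-1, also had a member 18487 bp upstream of its start, 244 bp wide, on chromosome 12 from 85455282 to 85455525. Per1 was the single clock gene of 23 with a member. The Per1 peak spans chromosome 11 from 69094786 to 69095227 and lies at the most upstream start of the gene.

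The 22 lists were chosen with earlier results of these data known, so their order is a description only. Among them, the ER chaperone and ER stress list had the highest share of its genes at members. Of 29 genes, 7 had a member (24.1%) and 2 a shared peak (6.90%), against 1.96% and 2.14% of all genes. Hspa5, Hyou1 and Dnajb1 encode chaperones of the ER or cytosol, with members centred 186, 77 and 22 bp from a start. Derl2 (143 bp) and Sel1l (147 bp) encode parts of ER-associated degradation. Atf4 (22 bp) and Eif2ak3, the kinase PERK (95 bp), belong to the translational arm of the stress response. The shared peaks were at Dnajb9 and Dnajb11. No test of this list against other genes was made, and the difference between members and shared peaks was not tested.

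Genes of RNA synthesis and processing were present in both sets. Of 106 RNA polymerase, Mediator and general transcription factor genes, 8 had a member (7.55%) and 9 a shared peak (8.49%). Tbp, the TATA-binding protein, Taf2, Taf7, Gtf2h5, Gtf2e1, Gtf3c2, Med31 and Gtf2h1 had members, the first 5 centred 4 to 12 bp from a start. Of 82 splicing factor genes, 8 had a member and 8 a shared peak (9.76% each). Members were at Sf3b5, Srsf5, Prpf31, Snrpg, Srsf3, Hnrnpa3, Hnrnpul2 and Lsm12. The Lsm12 member was centred 999 bp from a gene end whose strand was not given, just inside the limit of 1000 bp. Of 53 DEAD and DEAH box helicase genes, 6 had a member (11.3%) and 7 a shared peak (13.2%), with members at Ddx50 (1 bp), Ddx17 (11 bp), Dhx38 (14 bp), Dhx36, Ddx56 and Ddx42.

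Genes of translation and energy metabolism were also in both. Of 83 cytosolic ribosomal protein genes, 6 had a member (7.23%) and 8 a shared peak (9.64%). The members were at Rps9 (41 bp), Rpl13 (44 bp), Rpl3 (46 bp), Rps2 (70 bp), Rps27 (76 bp) and Rplp0 (108 bp). Of 96 respiratory chain and ATP synthase genes, 5 had a member (5.21%), namely Ndufb6 (8 bp), Ndufb2 (10 bp), Uqcrfs1 (26 bp), Atp5md (115 bp) and Atp5d (821 bp), and 4 a shared peak (4.17%). Mitochondrial ribosomal protein genes had 2 of 78 at members, Mrpl55 and Mrpl48, and 4 at shared peaks. Translation initiation factor genes had 3 of 56 at members (Eif4a3, Eif5a and, by its symbol, Eif2ak3) and 2 at shared peaks. Mitochondrial import genes had 1 of 25 at a member, Tomm40, and 2 at shared peaks.

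The Rab GTPases, which direct vesicle traffic, included several members. Of 59 Rab genes, 7 had a member (11.9%) and 2 a shared peak (3.39%). Rab11a and Rab11b, which mark recycling endosomes, had members 10 and 172 bp from a start, and Rab5b, of early endosomes, one 223 bp away. Rab13 (9 bp), Rab6a (82 bp), Rab2b (107 bp) and Rab3a (129 bp) were the others. The Rab13 peak is the same one as at Rps27, and the Rab6a peak the same as at Mrpl48.

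Nuclear pore genes had 0 of 33 at members and 7 at shared peaks (21.2%), a difference that was not tested, among them Nup214, whose vehicle peak was centred on its start. DNA replication and cell cycle genes had 1 of 45 at a member, Rfc1, a subunit of the clamp loader (24 bp), and 5 at shared peaks (11.1%). Proteasome genes had 3 of 51 at members (Psmb9, Psmd3 and Psmb8) and 2 at shared peaks. The histone pair H2bc11 and H2ac11 shared 1 member, out of 66 clustered histone genes, and 2 histone genes had shared peaks. Zinc finger genes of the Zfp series had 11 of 397 at members (2.77%) and 4 at shared peaks (1.01%). Collecting duct genes (31), proximal tubule markers (12) and ubiquitin-conjugating enzyme genes (37) had none at a member and none at a shared peak. Avpi1, a gene named for induction by vasopressin and chosen after its values were seen, had a narrow member of 139 bp centred 313 bp upstream of its start.

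**Figure D5:**
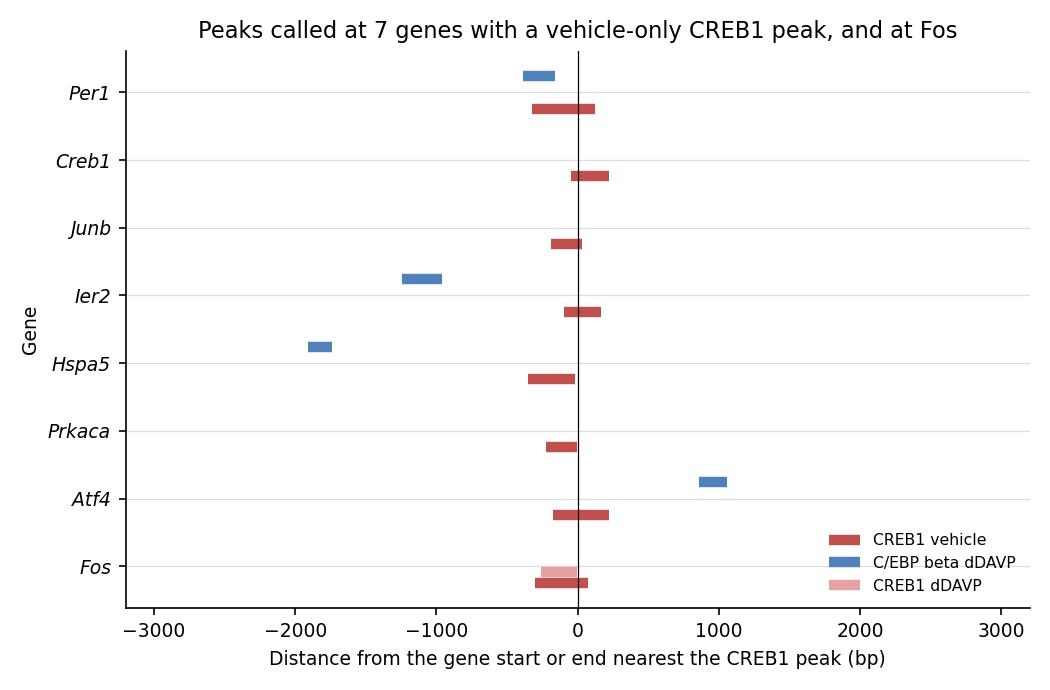
Extent of peaks called in the 4 lists around the start of 8 genes, as distance in bp from the gene start nearest the CREB1 peak (negative upstream, except for Ier2, where the strand is not given and distance follows the chromosome). Each of the 7 genes with a vehicle-only peak has a CREB1 vehicle bar and no CREB1 dDAVP bar, and Fos has both. C/EBP beta dDAVP bars stand at Per1, Ier2, Hspa5 and Atf4. A further C/EBP beta dDAVP peak, at another start of Per1, lies beyond the range shown.

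A second factor was called at a minority of members. The C/EBP beta dDAVP list overlapped 30 of 388 members (7.73%, 5.47 to 10.8) and 19 of 397 shared peaks (4.79%, 3.09 to 7.35). The difference of 2.95 points (-0.476 to 6.47) did not pass (Fisher's exact test, adjusted p = 0.404). The C/EBP beta vehicle list overlapped 4 members (1.03%) and 1 shared peak (0.252%), a difference that did not pass either (adjusted exact p = 0.404). Of the 30, 22 lay at a gene start, 11 had an arm of the CRE in a promoter window and 2 a full CRE, at Lmbrd1 and Klhl12. CREB1 experiment 3 and C/EBP beta experiment 2 shared their inputs, and the part of that in these overlaps was not tested.

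A member beside the long noncoding RNA gene Neat1 on chromosome 19 from 5845498 to 5845703, entirely covered by a C/EBP beta peak, had the authors' scores of 1449 after dDAVP and 329 after vehicle. Spty2d1 had scores of 340 and 107. Fdxr, ferredoxin reductase, had a dDAVP score of 872 and Uvssa, a transcription-coupled repair gene, 448. Hnrnpul2 (330), Atg16l1 of autophagy (306), Ccdc47 (273), Zfp672 (211) and Lmbrd1 (199) followed at gene starts. A member 4905 bp upstream of Map1lc3b, the autophagy protein LC3B, had a score of 287. The C/EBP beta peak that overlaps the Per1 member had a low score, 113. A separate C/EBP beta dDAVP peak, centred 29 bp upstream of another Per1 start, scored 601 and did not overlap the member. The median over the 30 was 186, against 323 over the 19 shared peaks with an overlap and 197 over the whole C/EBP beta dDAVP list, and these medians were not tested. Scores were used only within their own list.

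A group of 5 of these 30 lay on chromosome 6 between 47672293 and 47763446, near the predicted genes Gm40365, Gm36327 and Gm40363. The C/EBP beta dDAVP list held 12 peaks in the same stretch, and 8 of the 11 distances between their neighbouring centres were 4262 to 4355 bp. The first 3 CREB1 members there were 4354 and 8659 bp apart, centre to centre. The CREB1 dDAVP list had 1 peak there, from 47739950 to 47740119, which was not called after vehicle. Evenly spaced peaks can mark tandem copies whose reads cannot be assigned to one copy, and this was not tested here. Without the group, 25 of 383 members overlapped a C/EBP beta dDAVP peak, and the difference was 1.74 points (Fisher's exact test, adjusted p = 0.558). That comparison was added after the group was seen.

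The members away from gene starts numbered 28, of which 12 lay inside a protein-coding gene and 16 outside. One was 1745 bp inside Cdkn1a, the cell cycle inhibitor p21, and one 14060 bp upstream of Btg2, both named after their values were seen. The farthest was 145773 bp upstream of Rgs6, followed by one 104399 bp from Zfat, the one near Rab10, one 69621 bp from Dnajc3 that lay inside Uggt2, one 57180 bp inside Itpkb and one 32591 bp upstream of BC107364, near a small nuclear RNA gene. A tRNA gene lay within 1000 bp of 4 members and 1 shared peak, and a long noncoding RNA gene within 1000 bp of 59 and 46. By chromosome, the members' share of vehicle peaks ran from 36.7% on chromosome 3 (24.7 to 50.7) to 71.9% on chromosome 6 (54.6 to 84.4). Of the 23 members on chromosome 6, 5 are the evenly spaced group above, and chromosome 7 had 71.4% (50.0 to 86.2). Within 10000 bp of another vehicle peak lay 25 members, so most stood alone.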

How the data were processed

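The authors deposited 4 lists of peaks, each for an antibody under 1 treatment. The submitters' processing notes name bedtools, MACS2, SAMtools, BWA and the build mm10; roles and versions are not given in the sources used here, nor how replicates were combined. The CREB1 lists hold positions only. The C/EBP beta lists also hold a deposited score per peak, whose scale is not stated and whose peak names are those of replicate 1. No read counts were analysed here. From the lists, overlaps (at least 1 bp), distances from peak centres to RefSeq protein-coding gene starts (1000 bp) and motif matches were computed with Python 3.11.15, pandas 2.3.3 and SciPy 1.17.1. Promoter windows and strand came from RefSeq, GRCm38.p6, which covered 17492 of 21887 genes by symbol and gene ID. Fisher's exact tests were two-sided, with Benjamini-Hochberg adjustment within 4 positional comparisons and within 8 motifs, called under 0.05, and checked on simulated data. Intervals at 95% are Wilson's, and Newcombe's for differences. In the 22 gene lists, families were taken by symbol pattern and pathways by hand. Named genes were the widest members, members on the gene lists, the 10 with a CRE promoter closest to a start (12 with ties), the best C/EBP beta scores, the farthest members, those nearest the overlap threshold, the widest at divergent pairs, and Creb1, Per1, Junb, Ier2, Hspa5, Prkaca, Atf4, Nup214, Fos and Aqp2. Aqp2 had no peak of any list within 5000 bp of its start. The members and lists were chosen with earlier results of these data known. Some results on named genes are not reported here.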

Additional observations from a re-analysis of the deposited data

How the results depend on the processing

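No paired analysis was possible because each antibody has a single list per treatment with no replicate columns. For the same reason no replicate could be left out. The number of vehicle-only CREB1 peaks was 388, was 384 to 412 under other overlap rules, and was 210 among peaks of at least 240 bp, a smaller set by construction. The difference in the CRE arm, -7.84 points, no longer passed when a dDAVP peak within 500 bp counted as shared (-6.61), among peaks over 290 bp wide (-7.13), for promoters within 500 bp (-7.17) or with 1 promoter per peak (-6.50). The full CRE passed among peaks up to 290 bp wide (-15.5). Direction turned, without passing, in the narrow peaks for the C/EBP-ATF composite (-0.885), CCAAT (-3.39), ETS (5.93) and divergent pairs (0.718), and in the wide peaks for TATA (-1.09) and overlap with C/EBP beta vehicle peaks (-0.315). The cause was not tested. In the other 55 recalculations the direction and side of the threshold held, or the peak count stayed within 1.5 times. Leaving out the chromosome 6 group and splitting divergent pairs by width were chosen after seeing the data. At 5000 bp, 21 of 22 gene lists stayed within 1.5 times their count, and nuclear pore genes went from 0 to 1. Depth is unknown, so no limit of detection could be set.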
